A study of Homo sapiens with 2 samples.

Results

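The genes described here were those of the mitochondrial respiratory chain, read from both genomes that encode it. The 13 mitochondrial members were the protein-coding genes of the mitochondrial DNA, ND1 to ND6 with ND4L, CYTB, COX1 to COX3, ATP6 and ATP8. The 74 nuclear members were protein-coding genes whose symbols start with NDUFA, NDUFB, NDUFC, NDUFS, NDUFV, UQCR, COX4, COX5, COX6 or COX7, and SDHA to SDHD. Together they made 87 of the 54261 rows of the count table. Rows with such symbols that were left out comprised 132 pseudogenes, 3 antisense RNAs and 1 read-through gene.

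The study profiled RKO, an established human colon carcinoma cell line, after transfection with a small interfering RNA (siRNA) against the splicing factor SRSF2 (si-SRSF2) or with a negative control siRNA (si-NC). Both groups were RKO cells grown in the same medium, and each was represented by 1 poly(A)-selected RNA-seq library. The study lists 1 oligo for si-SRSF2, so lower SRSF2 and other actions of that oligo cannot be told apart, and the time after transfection is not given in the sources used here. With 1 library per group no difference has a replicate check, so no p-value is given, and every interval below is a 95% Clopper-Pearson interval that covers counting error only.

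The si-NC library held 19931360 counts and the si-SRSF2 library 14512802. SRSF2 itself fell from 1964 counts (98.5 counts per 1000000 counts, CPM) to 713 counts (49.1 CPM), a log2 ratio of -0.997. The epithelial genes EPCAM (179 and 147 counts), KRT18 (632 and 477 counts) and CDX2 (212 and 158 counts) were detected, whereas KRT19, CDX1, CDH17, VIL1 and LGALS4 had 2 counts or fewer in either library and CDH1 had 10 and 6. Of the blood, fibroblast and endothelial markers, CD68 had 15206 and 14256 counts and the other 10 had 13 counts or fewer. KRT8 had 547 and 618 counts, a log2 ratio of 0.62. In bulk libraries, more RNA of a kind in each cell and more cells rich in that RNA cannot be told apart.

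The respiratory chain passes electrons from NADH and succinate to oxygen and pumps protons across the inner mitochondrial membrane. Complex I oxidizes NADH, complex II oxidizes succinate, complex III passes electrons from ubiquinol to cytochrome c, and complex IV reduces oxygen. Complex V, the ATP synthase, lets the protons back and makes ATP. Complexes I, III, IV and V are built from subunits of both genomes, while complex II is encoded by nuclear genes alone. The mitochondrial DNA is transcribed from both strands into long RNAs, from which most mRNAs are released when the tRNAs between them are cut out. Nuclear members are transcribed gene by gene, spliced, translated in the cytosol and imported.

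Features of the mitochondrial mRNAs that bear on how their reads are counted can be read in the sequence (GRCh38 mitochondrial sequence). Of the 13 genes, 6 encode only 1 or 2 bases of their stop codon, and the rest of the codon is added by polyadenylation. The last 15 bases of these 6 genes, all on the plus strand, are shown first, followed by 3 genes with a complete stop; capitals mark the stop bases that the gene encodes. ND6, the last of them, is the one mRNA read from the other strand.

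ND1: tccccctcaaaccTA

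ND2: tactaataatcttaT

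ND3: tagactgaaccgaaT

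ND4: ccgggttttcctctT

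CYTB: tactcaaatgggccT

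COX3: attgatgagggtctT

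COX1: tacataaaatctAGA

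COX2: gtatttaccctaTAG

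ND6: gctcgggggaatAGG

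Both kinds of mRNA were similarly placed in the comparison described below. The 6 genes with an incomplete stop had a median log2 ratio of 0.09, and the 7 with a complete stop 0.11.

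Neighbouring reading frames also overlap, which is shown because a read in the shared bases belongs to both genes. ATP8 and ATP6 share 46 bases (chrMT:8527-8572, plus strand), and ND4L and ND4 share 7 bases (chrMT:10760-10766, plus strand). In the windows chrMT:8515-8584 and chrMT:10748-10778, capitals mark the shared bases.

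ATP8 and ATP6: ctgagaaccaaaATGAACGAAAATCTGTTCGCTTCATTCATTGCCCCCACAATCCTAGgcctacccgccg

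ND4L and ND4: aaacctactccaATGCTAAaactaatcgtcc

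ATP8 is only 207 bases long, so reads of 150 bases from it often reach ATP6. ATP6 shares a further 1 base with COX3. The setting that decides how HTSeq treats such reads is not given in the sources used here, and levels of ATP8, ATP6, ND4L and ND4 are uncertain to that extent.

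The mitochondrial members were by far the more abundant of the 2 sets. They took 886484 counts, or 4.45% of the library, in si-NC and 699679 counts, or 4.82%, in si-SRSF2. The 74 nuclear members took 109211 counts (0.548%) and 81202 counts (0.560%). Mitochondrial counts were therefore 89.0% (interval 89.0 to 89.1) of all member counts in the control and 89.6% (89.5 to 89.7) after si-SRSF2. This share does not depend on scaling, and it was higher in si-SRSF2 by more than the counting error. The share of mitochondrial counts within complex I, without its assembly factors, was 86.9% and 87.2%, within complex III 73.2% and 73.9%, and within complex IV 94.3% and 94.7%.

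Levels were compared between genes per length, as CPM per kilobase (kb). Nuclear lengths were those of the GENCODE canonical transcript, so these levels are uncertain where another form was expressed. UQCRB, set at 8459 bases, stood at 45.9 CPM per kb in si-NC on 7733 counts. The median level of the 13 mitochondrial members was 2382 CPM per kb in the control and 2573 after si-SRSF2. That of the 69 nuclear members that averaged 1 CPM or more was 52.8 and 57.2 CPM per kb. The ranges met only at their edges: the nuclear maximum in si-NC, UQCRH with 399 CPM per kb, exceeded ATP8 with 284 and no other mitochondrial member.

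**Figure D1:**
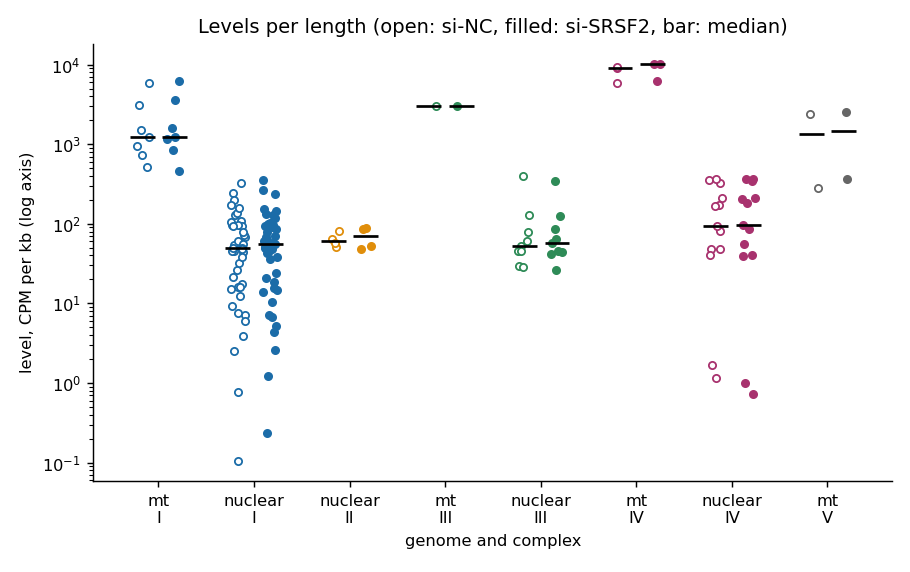
Level per length of each member averaging 1 CPM or more, in CPM per kb on a log axis, grouped by genome (mt, mitochondrial) and complex. Open points are si-NC, filled points si-SRSF2, and bars are medians; in complexes I, III and IV every mitochondrial member lies above every nuclear member of the same complex.

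Among the mitochondrial mRNAs the cytochrome c oxidase genes led. COX1 encodes the catalytic subunit that reduces oxygen, and COX2 holds the site that receives electrons from cytochrome c. COX2 stood at 9395 CPM per kb in the control and 10114 after si-SRSF2, with COX1 at 9067 and 10250. COX1 alone gave 31.4% of all mitochondrial member counts in the control and 32.8% after si-SRSF2. ND4 (5925 and 6189 CPM per kb) and COX3 (5832 and 6319) followed, and each of these 2 pairs changed places between the libraries. ND6 (513 and 466) and ATP8 (284 and 370) were the lowest in both. The order of the 13 levels was otherwise much the same in the 2 libraries (Spearman's rho 0.99, a description over 13 genes that share their libraries).

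The si-SRSF2 to si-NC comparison asked whether either set of genes shifted when SRSF2 was lowered. Over the 12620 genes that averaged 1 CPM or more across both libraries (the genes tested), the median log2 ratio of scaled counts (CPM + 0.5) was -0.02. Of the mitochondrial members 11 of 13 were higher in si-SRSF2, and of the nuclear members 43 of 69, against 46.2% of all genes tested. The median log2 ratio was 0.11 for the mitochondrial and 0.06 for the nuclear members, a difference of 0.05. Most of these differences were small: 2 mitochondrial and 13 nuclear members were at least 1.2-fold higher (14.9% of all genes tested), and 0 mitochondrial and 4 nuclear members were at least 1.2-fold lower (17.9%). A difference of at least 1.5-fold was seen in 0 mitochondrial members. Of the nuclear members, 2 were that much higher (4.18% of all genes tested) and 2 lower (3.52%). NDUFS1 (24 and 40 counts) among the higher and NDUFA4L2 (32 and 10 counts) among the lower were near the detection limit. NDUFA4L2 averaged 1 CPM only through si-NC (1.61 CPM, against 0.689 in si-SRSF2). The shares of nuclear members past 1.2-fold upwards, and past 1.5-fold either way, were thus near those of all genes, while the share past 1.2-fold downwards was below it.

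Counting error alone covered part of the spread. The interval lay above 0 for 10 mitochondrial and 24 nuclear members, against 21.0% of all genes tested, and below 0 for 1 mitochondrial and 8 nuclear members, against 26.7%. It held 0 for the other 2 mitochondrial members, ND2 and CYTB, and for 37 nuclear members. Counts of mitochondrial members ran from 1111 to 278651 per library, so their intervals are narrow compared with those of most genes. The 201 other genes averaging 500 CPM or more had a median log2 ratio of 0.04, and 62.2% of them were higher in si-SRSF2. At 100 CPM or more, the median of the 2447 other genes was -0.02 and 45.4% were higher.

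**Figure D2:**
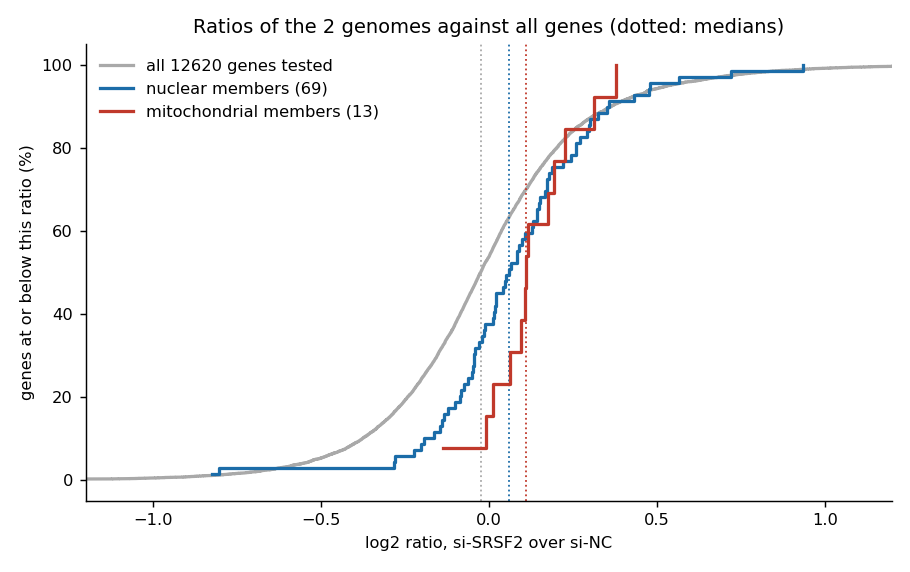
Cumulative share of genes (percent, vertical axis) at or below each log2 ratio of si-SRSF2 over si-NC (horizontal axis, central range shown) for the 13 mitochondrial members, the 69 nuclear members and all 12620 genes tested. Dotted lines are the medians of 0.11, 0.06 and -0.02; the mitochondrial curve is the steepest, between -0.14 and 0.38.

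Summed counts gave the same order. The 13 mitochondrial members together had a log2 ratio of 0.12 (interval 0.11 to 0.12), and the 74 nuclear members 0.03 (0.02 to 0.04). Within complex I the 2 genomes hardly differed in their medians, 0.10 for the 7 mitochondrial members and 0.12 for the 36 nuclear subunits tested, leaving out the 7 NDUFAF assembly factors. For core subunits alone the medians were 0.10 for the 7 mitochondrial and 0.18 for the 7 nuclear ones, a difference of -0.08 whose sign rested on the barely detected NDUFS1. Without it the nuclear median was 0.07 and the difference 0.02. In complex IV the medians were 0.12 for 3 mitochondrial and 0.02 for 13 nuclear members, and in complex III 0.01 for CYTB and -0.05 for 9 nuclear members. The mitochondrial median was therefore above the nuclear one in complexes III and IV and below it in complex I, by 0.06, 0.10 and -0.02 on the log2 scale.

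The 7 mitochondrial ND genes encode the membrane part of complex I, through which protons are pumped. They ranged more widely than the other mitochondrial members. ND6 was the one with its interval below 0, with 5366 counts (269 CPM) in the control and 3551 counts (245 CPM) after si-SRSF2, a log2 ratio of -0.14 (interval -0.20 to -0.08). ND3 went the other way, with 6481 counts (325 CPM) and 5863 counts (404 CPM), a log2 ratio of 0.31 (0.26 to 0.36). ND6 is transcribed from the strand opposite to the other 12 and is known to lack a long poly(A) tail. Its log2 ratio was the lowest of the 13, and the part of poly(A) selection in that value was not tested.

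The remaining ND genes lay between them. ND2 had 25627 and 18530 counts, a log2 ratio of -0.01 (interval -0.04 to 0.02). ND4 had 162718 and 123774 counts, a log2 ratio of 0.06, and ND5 had 53847 and 41909 counts, a log2 ratio of 0.10. ND2, ND4 and ND5 are antiporter-like subunits, and they were the 3 lowest of the ND genes after ND6. ND1, next to the site where ubiquinone binds, had 13956 and 11627 counts, a log2 ratio of 0.19. ND4L, which overlaps ND4, had 18332 and 15607 counts, a log2 ratio of 0.23 (0.19 to 0.26), above that of ND4.

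CYTB, the haem-bearing core of complex III, had 68812 and 50577 counts and a log2 ratio of 0.01 (interval -0.003 to 0.030). The 3 complex IV genes were all higher in si-SRSF2. COX1 had 278651 and 229388 counts (13982 and 15805 CPM), a log2 ratio of 0.18 (0.17 to 0.19). COX2 had 128076 and 100406 counts and COX3 91118 and 71903 counts, with log2 ratios of 0.11 and 0.12. COX1 thus exceeded COX2 and COX3 by more than counting error.

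Of the complex V genes, ATP6, part of the proton channel, had 32328 and 25433 counts and a log2 ratio of 0.11. ATP8, its short partner, had 1172 counts (58.8 CPM) and 1111 counts (76.5 CPM). Its log2 ratio of 0.38 (interval 0.26 to 0.50) was the highest of the mitochondrial members, on the fewest counts. ATP8 and ATP6 lie on 1 mRNA, as do ND4L and ND4, and in both pairs the shorter frame had the higher log2 ratio. Within a pair the values therefore describe reading frames and not separate mRNAs. Why they differ was not tested.

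**Figure D3:**
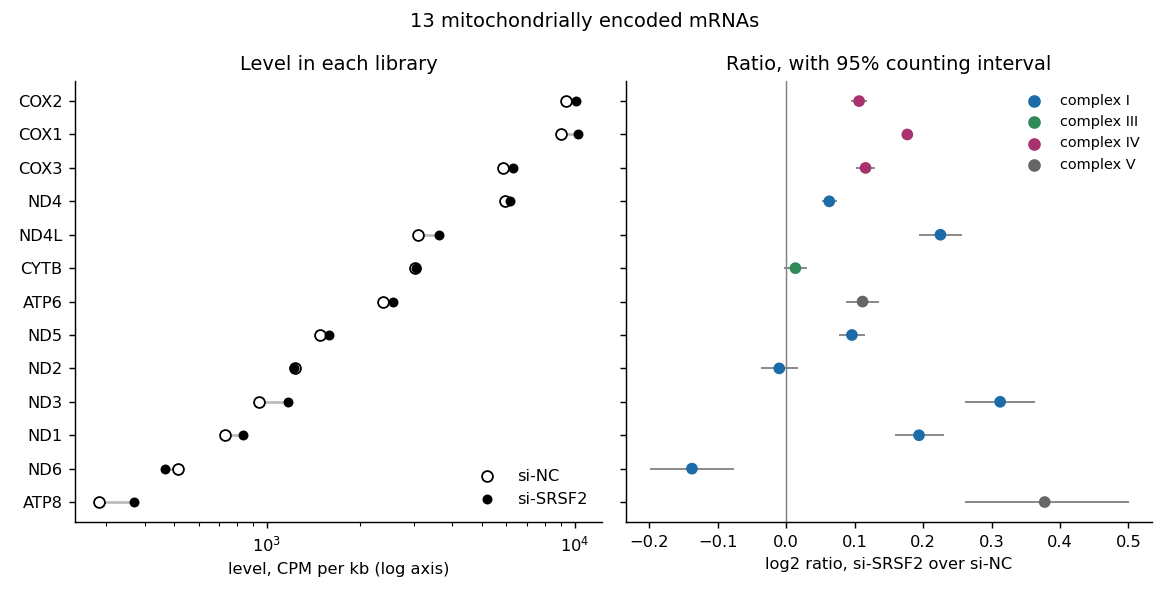
Left, level of each of the 13 mitochondrial members in si-NC (open) and si-SRSF2 (filled), in CPM per kb on a log axis, ordered by level. Right, log2 ratio of si-SRSF2 over si-NC with its 95% counting interval, coloured by complex; 11 of 13 lie above 0, ND6 lies at -0.14 and ATP8 at 0.38.

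Copies of mitochondrial DNA in the nuclear genome can take reads from the mitochondrial members. The table held 393 rows of such copies, with 11819 control and 9546 si-SRSF2 counts, a log2 ratio of 0.15 (interval 0.11 to 0.19). Most of these counts fell on MTATP6P1 (chr1:633696-634376), which had 8367 and 6697 counts and is identical to ATP6 at 98.5% of its 681 bases. Of the reads counted for that pair, 20.6% and 20.8% were listed under the copy, so the level of ATP6 is uncertain by about that share, while its ratio between libraries was like that of the copy. MTND2P28 had 1330 and 871 counts, MTND1P23 had 1118 and 1053, and MTCO1P12 had 864 and 771. MTCO2P12, from the same stretch of chromosome 1, had 1 and 2 counts. The rows of the mitochondrial ribosomal RNAs held few counts, RNR1 with 41 and 22 and RNR2 with 125 and 73. Whether reads of these RNAs were removed before counting was not tested, so the counts say little of their abundance.

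The nuclear members of complex I comprised 7 core subunits, which carry the flavin and iron-sulphur clusters, 7 NDUFAF assembly factors and the accessory subunits. The largest fall among members averaging 5 CPM or more was in NDUFV2 (chr18:9102699-9134341, plus strand), a core subunit with an iron-sulphur cluster. It had 2944 counts (148 CPM) in the control and 1225 counts (84.4 CPM) after si-SRSF2, a log2 ratio of -0.80 (interval -0.90 to -0.71). The level in si-SRSF2 was 0.571 times that in si-NC. NDUFV2-AS1, an antisense gene that overlaps it, had 7 and 0 counts. NDUFV1, which binds NADH and is the direct partner of NDUFV2 in the complex, had 2938 and 2094 counts and a log2 ratio of -0.03 (-0.11 to 0.05). Per length, NDUFV2 stood at 172 CPM per kb in the control and 98.5 after si-SRSF2, and NDUFV1 at 94.5 and 92.5.

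None of the other core subunits had an interval below 0. NDUFS8, which carries iron-sulphur clusters, had 715 and 642 counts, a log2 ratio of 0.30 (interval 0.15 to 0.46). NDUFS3 was at 0.18 and NDUFS7 at -0.09, the latter with an interval that held 0. NDUFS1, the largest core subunit, was barely detected, with 24 and 40 counts. Its log2 ratio of 0.93 had an interval of 0.43 to 1.99. The median of the 7 core subunits was 0.18, and 0.07 without NDUFS1.

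The largest rise among members averaging 5 CPM or more was in NDUFAF3 (chr3:49020452-49023495, plus strand), a complex I assembly factor. It had 391 counts (19.6 CPM) in the control and 474 counts (32.7 CPM) after si-SRSF2, a log2 ratio of 0.72 (interval 0.54 to 0.93). Counts were thus higher in the shallower library. NDUFAF3 shares 1054 bases of its locus with DALRD3, which had 505 and 429 counts and a log2 ratio of 0.22 (0.03 to 0.41), and how reads in the shared bases were assigned is not given in the sources used here, so the value of NDUFAF3 is uncertain to that extent. NDUFAF4, which acts with NDUFAF3 in assembly, had 286 and 180 counts and a log2 ratio of -0.20 (-0.49 to 0.06). NDUFAF1 was at -0.14 (-0.35 to 0.07), and 6 of the 7 assembly factors had an interval that held 0, as did 6608 of the 12620 genes tested.

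Accessory subunits of complex I surround the core and are needed to assemble or hold it. Of 29 tested, 20 were higher and 9 lower in si-SRSF2 (46.2% of all genes tested were higher), with a median of 0.11. NDUFB1 had 589 and 601 counts (29.6 and 41.4 CPM), a log2 ratio of 0.48 (interval 0.32 to 0.65). NDUFA7 had 705 and 659 counts and NDUFB6 436 and 407, with log2 ratios of 0.36 and 0.35. NDUFB6 shares 13860 bases of its locus with SMIM27, so its value has the same limit as that of NDUFAF3. Of the 74 nuclear members, 26 overlap another RefSeq gene. NDUFS4, an accessory subunit near the NADH site, had 595 and 544 counts and a log2 ratio of 0.32 (0.16 to 0.50). These genes had close to equal raw counts in the 2 libraries, although the si-SRSF2 library was the shallower. NDUFS5, which had the most counts of the nuclear complex I genes, had 3175 and 2551 counts and a log2 ratio of 0.14 (0.07 to 0.22).

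At the lower end stood NDUFB2, with 964 and 577 counts (48.4 and 39.8 CPM) and a log2 ratio of -0.28 (interval -0.43 to -0.13). NDUFA10 had 2512 and 1679 counts, a log2 ratio of -0.12 (-0.21 to -0.03). NDUFA2 had 694 and 458 counts and a log2 ratio of -0.14 (-0.32 to 0.03), with an interval that held 0. It shares 2346 bases of its locus with TMCO6 (183 and 111 counts), so its value is uncertain in the same way. By symbol family, 7 of 8 NDUFS, 10 of 14 NDUFA, 5 of 11 NDUFB, 2 of 2 NDUFC and 1 of 3 NDUFV genes tested were higher in si-SRSF2, against 46.2% of all genes tested. The NDUFA genes counted here include NDUFA4 and NDUFA4L2 of complex IV, and the assembly factors are left out.

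A few complex I genes could hardly be measured. NDUFA3 had 0 counts in both libraries, NDUFA6 had 54 and 40 and NDUFC2 had 33 and 39. In the hg38 genome, 90.2% of sampled 31-base words of the NDUFA3 transcript and 94.3% of those of NDUFA6 also occur on alternate scaffolds, and NDUFC2 lies within the read-through gene NDUFC2-KCTD14, listed at 0. Whether reads of these genes were lost as multiply placed or ambiguous was not tested. With 0 counts, up to 3 counts (0.151 CPM in si-NC and 0.207 in si-SRSF2) remain possible.

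Complex II is succinate dehydrogenase, the enzyme that the respiratory chain shares with the citric acid cycle. Its 4 subunits did not shift together. SDHB, the iron-sulphur subunit, had 1309 counts (65.7 CPM) in the control and 1287 counts (88.7 CPM) after si-SRSF2, a log2 ratio of 0.43 (interval 0.32 to 0.55). SDHD, a membrane anchor, had 1514 counts (76.0 CPM) and 944 counts (65.0 CPM), a log2 ratio of -0.22 (-0.34 to -0.11). The catalytic flavoprotein SDHA had 2729 and 2045 counts, a log2 ratio of 0.04 (-0.04 to 0.12), and the other anchor, SDHC, had 2139 and 1669 counts, a log2 ratio of 0.10 (0.01 to 0.19). Per length, SDHB stood at 64.7 CPM per kb in the control and 87.4 after si-SRSF2, and SDHD at 56.7 and 48.6. On these lengths SDHB was the higher of the 2 in both libraries, while SDHD had more counts in the control.

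The promoters of SDHB and SDHD are shown because these 2 genes, whose products sit in 1 enzyme, moved in opposite directions. Each run holds the 250 bases before and the 50 bases after the RefSeq start (GRCh38.p14), SDHB at chr1:17053983-17054282 on the minus strand and SDHD at chr11:112086623-112086922 on the plus strand. Capitals mark matches on either strand to letters of 3 factors known for respiratory genes: GCATGCGC for NRF1, CCGGAAG for ETS factors such as GABP, and AAGATGGC for YY1.

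SDHB: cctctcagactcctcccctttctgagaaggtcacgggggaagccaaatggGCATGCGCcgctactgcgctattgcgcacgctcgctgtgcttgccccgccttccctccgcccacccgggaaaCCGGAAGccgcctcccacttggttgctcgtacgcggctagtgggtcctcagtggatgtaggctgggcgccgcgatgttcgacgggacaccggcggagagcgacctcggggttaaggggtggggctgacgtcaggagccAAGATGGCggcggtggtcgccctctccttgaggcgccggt

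SDHD: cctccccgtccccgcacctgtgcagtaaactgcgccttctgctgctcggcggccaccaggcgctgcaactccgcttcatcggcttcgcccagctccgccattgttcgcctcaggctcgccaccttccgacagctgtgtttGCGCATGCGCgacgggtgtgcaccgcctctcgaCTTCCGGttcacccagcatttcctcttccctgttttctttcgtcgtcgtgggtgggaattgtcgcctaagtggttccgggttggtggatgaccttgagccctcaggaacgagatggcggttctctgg

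Both promoters hold the NRF1 and ETS letters, in SDHD with the NRF1 letters on both strands in 1 overlapping stretch, and SDHB also holds those of YY1. A promoter was given for 62 of the 74 nuclear members. The NRF1 letters occurred in 11 of them (17.7%, against 3.27% of 27305 promoters of the same length), the ETS letters in 15 (24.2% against 10.7%) and the YY1 letters in 8 (12.9% against 3.03%). At least 1 of the 3 occurred in 26 members (41.9% against 15.6%). The median log2 ratio was 0.01 for the 11 tested members with the NRF1 letters and 0.07 for the 48 without, 0.02 for 15 and 0.03 for 44 in the case of ETS, and 0.02 for 7 and 0.03 for 52 in the case of YY1. With the letters, 6 of 11 (NRF1), 10 of 15 (ETS) and 4 of 7 (YY1) were higher in si-SRSF2, and without them 28 of 48, 24 of 44 and 30 of 52, against 46.2% of all genes tested. The windows of NDUFV2 and NDUFAF3 held none of these letters. Such matches describe the sequence and say nothing of binding.

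In complex III, UQCRC1 and UQCRC2 form the core in the matrix, and UQCRFS1 is the Rieske iron-sulphur protein. Of 9 nuclear members 4 were higher and 5 lower, a share near the 46.2% of all genes tested that were higher, with a median of -0.05. UQCRB had the most counts of any nuclear member, 7733 and 5456, and a log2 ratio of -0.05 (interval -0.10 to 0.00). UQCR10, a small subunit, had 964 and 866 counts, a log2 ratio of 0.30 (0.17 to 0.44). UQCRFS1 had 1796 and 1167 counts, a log2 ratio of -0.16 (-0.27 to -0.06).

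UQCRH, the acidic hinge protein, had 4272 counts (214 CPM) and 2721 counts (187 CPM), a log2 ratio of -0.19 (interval -0.26 to -0.12). UQCRHL, an intronless gene of nearly the same sequence, had 160 and 165 counts and a log2 ratio of 0.48 (0.18 to 0.82). Its share of the reads of the pair was 3.61% in si-NC and 5.72% in si-SRSF2. Reads of these 2 genes cannot be cleanly separated, so both values are uncertain, that of UQCRHL more so because its reads are few.

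Most of the well-measured nuclear members of complex IV lay close to 0. COX6C, with the most counts, had 5211 and 3929, a log2 ratio of 0.05 (interval -0.01 to 0.11), and COX4I1 had 5030 and 3878, a log2 ratio of 0.08 (0.02 to 0.14). COX6A1, COX6B1 and COX7B were at 0.01, 0.06 and -0.05, each with an interval that held 0. NDUFA4, once counted with complex I and now placed in complex IV, had 1976 and 1641 counts and a log2 ratio of 0.19 (0.09 to 0.29).

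The clearest contrast in complex IV was between paralogues of COX7A. COX7A2, the widely expressed subunit, had 1562 counts (78.4 CPM) in the control and 1393 counts (96.0 CPM) after si-SRSF2, a log2 ratio of 0.29 (interval 0.19 to 0.40). COX7A2L, which joins complexes III and IV into supercomplexes, had 2220 counts (111 CPM) and 1327 counts (91.4 CPM), a log2 ratio of -0.28 (-0.38 to -0.19). Per length COX7A2 was the higher in both libraries, at 170 and 208 CPM per kb against 48.8 and 40.1 for COX7A2L. That order rests on the lengths used, since COX7A2L had more counts in the control. The muscle form COX7A1 had 0 counts in both, as did COX4I2, COX6A2 and COX7B2, whose known expression is in lung, muscle and testis.

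The other tissue-restricted forms were near the detection limit. COX6B2 had 36 and 23 counts, a log2 ratio of -0.15 (interval -1.01 to 0.60). NDUFA4L2, a hypoxia-induced relative of NDUFA4, had 32 and 10 counts (1.61 and 0.689 CPM), a log2 ratio of -0.82 (-2.41 to -0.16). NDUFA4L2 and NDUFS1, above, therefore passed the 1.5-fold mark on few reads. With a pseudocount of 2 CPM their log2 ratios were -0.42 and 0.57, short of that mark (0.585 on the log2 scale). In both libraries the general isoform of each pair carried nearly all the counts.

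**Figure D4:**
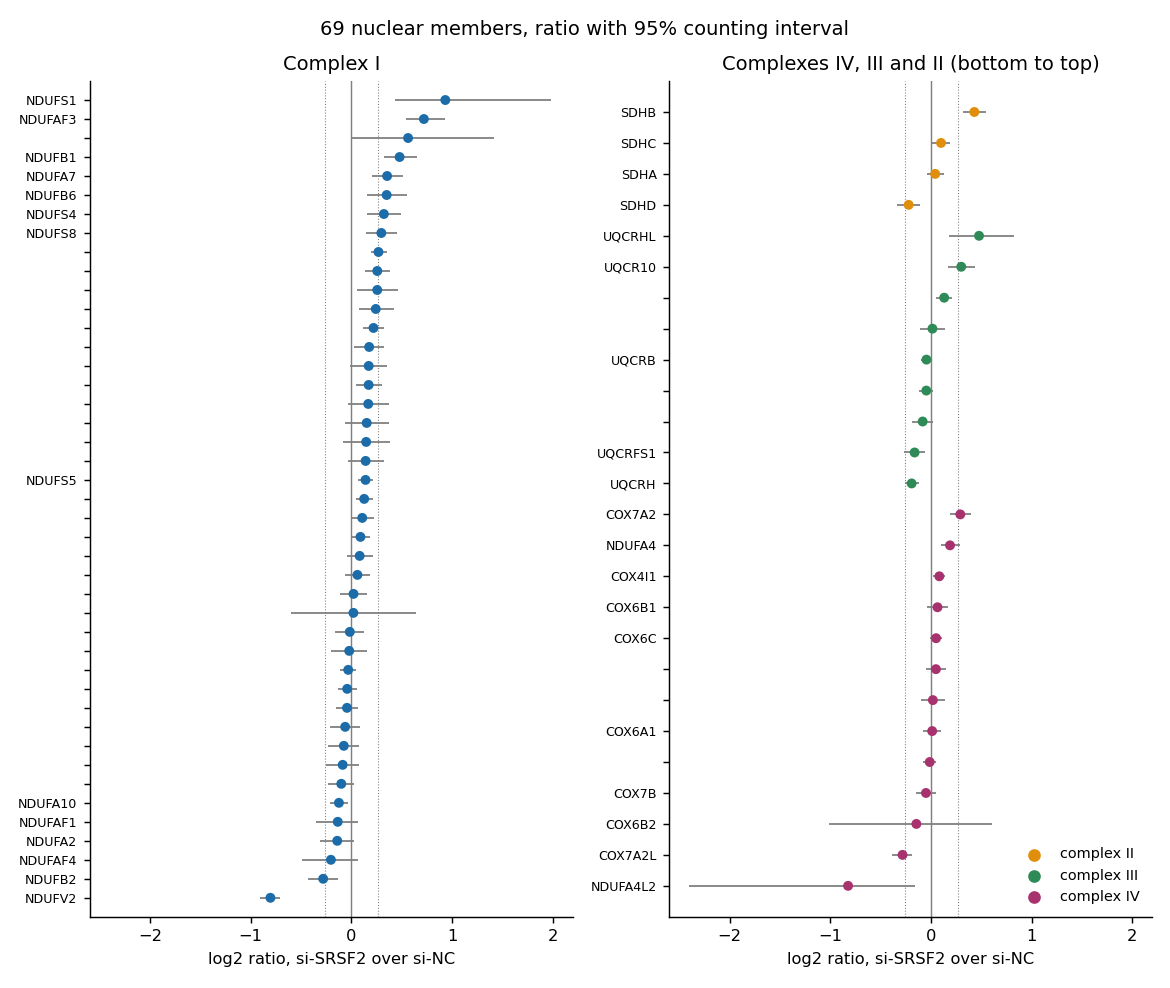
Log2 ratio of si-SRSF2 over si-NC (horizontal axis) for the 69 nuclear members tested, with 95% counting intervals, complex I on the left and complexes II to IV on the right; names are printed for the members that the naming rule covers. Dotted lines mark 1.2-fold; NDUFV2 at -0.80 and NDUFAF3 at 0.72 stand apart from the other members with narrow intervals.

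Ratios went with transcript length, in the members and in all genes. Spearman's rho of log2 ratio against length was -0.49 over the 13 mitochondrial members, -0.26 over the 64 nuclear members averaging 5 CPM or more, -0.19 over all 69 tested and -0.11 over 11294 genes, all as descriptions across genes of the same 2 libraries. The 3 mitochondrial members under 500 bases, ATP8, ND4L and ND3, had a median of 0.31, and the 10 longer ones 0.10. Nuclear members under 600 bases had a median of 0.13 (17 genes), against 0.14 for all 374 genes of that length. From 600 to under 1000 bases the medians were 0.08 (21 members) and 0.06 (588 genes), and from 1000 bases on 0.02 (31 members) and -0.04 (10332 genes). Set against genes of their own length, the nuclear members were therefore level in the shortest class and slightly above in the others. Nuclear lengths were again those of the canonical transcript, which may not be the form expressed here. The part of length in the members' ratios was not tested.

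**Figure D5:**
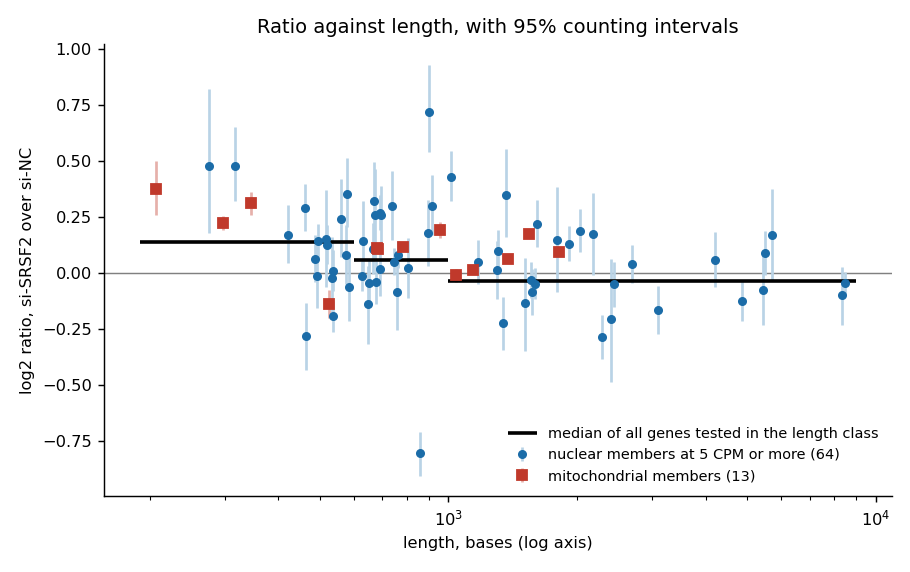
Log2 ratio of si-SRSF2 over si-NC against length in bases (log axis) for 64 nuclear and 13 mitochondrial members, with 95% counting intervals. Black lines are the medians of all genes tested under 600, from 600 to under 1000 and from 1000 bases, at 0.14, 0.06 and -0.04; NDUFV2 at -0.80 and NDUFAF3 at 0.72 lie farthest from them.

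Other genes of the pathway were taken from lists that do not overlap the members. Of the nuclear ATP synthase genes 11 of 17 tested were higher (46.2% of all genes tested), with a median of 0.10, and 4 were at least 1.2-fold higher (14.9%) and 0 lower (17.9%). Of the chain genes and assembly factors outside the symbol rule 11 of 29 were higher, with a median of -0.04. In that list 3 genes were at least 1.5-fold higher (4.18% of all genes tested) and 1 lower (3.52%). UQCC1, an assembly factor of complex III, had 773 and 991 counts, a log2 ratio of 0.81 (interval 0.68 to 0.95). ACAD9, a complex I assembly factor, had 601 and 686 counts, a log2 ratio of 0.64 (0.49 to 0.81).

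CYCS, the electron carrier cytochrome c, had 1946 counts (97.6 CPM) in the control and 2197 counts (151 CPM) after si-SRSF2, a log2 ratio of 0.63 (interval 0.54 to 0.72). TIMMDC1, which helps to assemble complex I, had 939 and 437 counts, a log2 ratio of -0.64 (-0.81 to -0.48). The 2 complex I assembly factors ACAD9 and TIMMDC1 thus moved in opposite directions. CYC1, the cytochrome of complex III that hands electrons to CYCS, was at -0.15, and COX8A of complex IV at -0.20.

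Among genes for mitochondrial RNA synthesis and handling 11 of 29 were higher (46.2% of all genes tested), with a median of -0.04 near the -0.02 of all genes. At least 1.2-fold, 1 of them was higher (14.9% of all genes tested) and 4 were lower (17.9%). The 4 lower were FASTKD3 (log2 ratio -0.34), C10orf2 (-0.32), KIAA0391 (-0.32) and TFB2M (-0.28). POLRMT, the RNA polymerase of mitochondria, had 1491 and 990 counts, a log2 ratio of -0.13 (interval -0.25 to -0.02). TFAM, which packs mitochondrial DNA and starts its transcription, had 1523 and 958 counts, a log2 ratio of -0.21 (-0.33 to -0.09). Both were lower while 11 of the 13 mitochondrial members were higher. LRPPRC and SLIRP form a complex known to stabilize mitochondrial mRNAs. Whether any gene of this list bears on the levels of the mitochondrial members was not tested. LRPPRC had 6452 and 5213 counts, a log2 ratio of 0.15 (0.10 to 0.20), and SLIRP, the 1 gene of the list at least 1.2-fold higher, had 509 and 545 counts, a log2 ratio of 0.55 (0.38 to 0.73). Of 8 regulators of nuclear chain genes tested, 3 were higher (46.2% of all genes tested), with a median of -0.07. At least 1.2-fold, 0 were higher (14.9%) and 2 lower (17.9%), PPARGC1B at -0.35 and NRF1 at -0.27 (interval -0.51 to -0.05). GABPA was at -0.14 (-0.28 to -0.01).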

How the data were processed

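Per the labels and the methods, total RNA of RKO cells was made into stranded poly(A) libraries, read as pairs of 150 bases, and the authors aligned the reads with HISAT2 2.0.4 (submitters' processing notes) to GRCh38 and counted them with HTSeq. Deposited values are raw counts per gene symbol; the strand and overlap settings are not given in the sources used here. Counts were scaled by TMM (edgeR 4.0.16, R 4.3.3), and log2((CPM si-SRSF2 + 0.5)/(CPM si-NC + 0.5)) was computed for the 12620 genes averaging 1 CPM or more. The interval code was tested on simulated data. Totals of 19931360 and 14512802 counts set the precision.

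Members and lists were chosen with earlier results of these data known. Named were all mitochondrial and SDH members, the 10 highest and 10 lowest nuclear members at 5 CPM or more, the member with most counts per complex, isoform pairs, every gene of the members and lists past 1.5-fold, and POLRMT, TFAM, LRPPRC, SLIRP, CYC1, CYCS and COX8A. NDUFA3, NDUFA6, NDUFC2, NDUFS3, NDUFS7 and NDUFV1 were named after their values were seen. So were FASTKD3, C10orf2, KIAA0391, TFB2M, NRF1, PPARGC1B and GABPA of the lists. The result for 1 member is not reported on its own here. Lengths came from the GENCODE canonical transcript and RefSeq, and promoters from RefSeq (GRCh38.p14). Alternatives were other scalings, pseudocounts, filters and member sets. Columns of authors' comparisons were not among the files.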

Additional observations from a re-analysis of the deposited data

How the results depend on the processing

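No paired analysis was possible because si-NC and si-SRSF2 had 1 library each, and no replicate could be left out for the same reason. Scaling by DESeq2 size factors, total counts or nuclear genes alone, pseudocounts of 0.1 and 2 CPM, and no filter or one at 5 CPM kept the direction of the medians, their difference and the sums wherever each was recomputed. They kept 13 nuclear members at least 1.2-fold higher and 4 lower, except for 11 and 3 with the filter at 5 CPM. Upper-quartile scaling shifted all ratios by 0.02 and gave 0.14 for the mitochondrial median, 0.14 for the mitochondrial sum, 0.054 for the nuclear sum and 16 and 2 nuclear members at least 1.2-fold higher and lower. Without ATP8, ATP6, ND4L and ND4 the mitochondrial share rose by 0.776 percentage points between libraries, against 0.570 with them. Of 342 values of 57 single genes under 6 alternatives, 7 left their counting interval and 0 with an interval off 0 changed sign. These 7 were ND4, ND5, CYTB, COX1, COX2, COX3 and ATP6, all under upper-quartile scaling. That scaling took CYTB from 0.01 to 0.04. It took ND2, whose interval held 0, from -0.01 to 0.01, so whether ND2 counted as higher depended on the scaling. In alternatives chosen after seeing the data, the nuclear median was 0.02 without members under 1000 bases, the mitochondrial median 0.10 without those under 500 bases, the mitochondrial sum 0.12 with nuclear copies added, and the difference of the complex I core medians 0.02 without NDUFS1, against -0.08 with it. Counting depth limits NDUFA4L2, NDUFS1, NDUFA6, NDUFC2 and COX6B2.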
